A study of Bos taurus with 9 samples.

Results

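The ISG15 conjugation system was followed as 7 genes, ISG15, UBA7, UBE2L6, HERC5, HERC6, TRIM25 and USP18, chosen by symbol from the 30641 genes of the deposited count table. All 7 were listed there, and all 7 were among the 14874 genes with enough counts to be tested. RNA had been sequenced from cultured bovine cells labelled as endometrial epithelial cells, in 9 libraries. The DPPA3 mRNA group (3 libraries) received 500 ng of DPPA3 mRNA that had been transcribed in vitro, carried by the reagent jetMESSENGER, at 24 hours from seeding. The reagent alone group (3 libraries) was given jetMESSENGER without RNA at the same time after seeding, and the untreated control group (3 libraries) was given neither. No group received another mRNA, so what belongs to the DPPA3 sequence and what to any mRNA transcribed in vitro cannot be told apart here. Nothing in the labels says whether a replicate was a culture or an animal of its own. The spread that the p-values rest on may therefore be technical. How long after transfection the cells were collected is not given in the sources used here.

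ISG15 is a small ubiquitin-like protein that is joined to lysines of other proteins in a cascade that resembles ubiquitination. UBA7 activates it, UBE2L6 carries it, a ligase passes it to the target, and USP18 takes it off again. The genes of the cascade are classical targets of type I interferon, and in ruminants ISG15 is induced in the endometrium in early pregnancy by interferon tau, which the conceptus secretes.

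Library totals ran between 11070923 and 13258036 counts in the DPPA3 mRNA group, between 3890134 and 12092771 in the reagent alone group and between 7258348 and 10130619 in the untreated control group. Levels are given in CPM (counts divided by the scaled library size and brought to a common total) and a floor of 3 counts corresponded to between 0.226 and 0.747 CPM. The transfected transcript took between 0.953% and 1.93% of the counts of the DPPA3 mRNA libraries, against 0 counts in every reagent alone library and at most 2 in an untreated control library. Of 9 epithelial markers, the keratins KRT8, KRT18, KRT19 and KRT7 and the cadherin CDH1 were well detected (KRT8 at 4262 ± 246, 4067 ± 264 and 4451 ± 493 CPM in the DPPA3 mRNA, reagent alone and untreated control groups; SD, n = 3). The other 4 did not pass the filter on low counts. EPCAM stayed under 1 CPM and CLDN4 under 2 CPM, ESRP1 had at most 1 count in a library, and the epithelial regulator GRHL2 was at 0 in all 9 libraries. Of 9 stromal markers, THY1 had between 2 and 10 counts in a library and the other 8 were above the floor in every library. The collagens COL1A1, COL1A2 and COL3A1 made up most of their summed levels of 29464 to 34659 CPM with DPPA3 mRNA, 27910 to 35994 CPM for reagent alone and 30397 to 46375 CPM for the untreated control. The 9 epithelial markers summed to 8791 to 9789, 8584 to 8940 and 8925 to 11048 CPM in the same groups. The libraries thus held transcripts of epithelial and of stromal marker genes. Of 10 immune cell markers, PTPRC, which marks leukocytes, was at 0 in all 9 libraries, 4 never passed 3 counts in a library, and all 10 summed to 8.75 to 10.4 CPM with DPPA3 mRNA, 7.48 to 13.4 CPM with reagent alone and 6.94 to 13.5 CPM in untreated cells. The 6 endothelial markers summed to between 6.41 and 12.2 CPM over all libraries, with EMCN at 0 throughout.

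The modifier itself, ISG15, measured 4.52, 105 and 17.6 CPM in replicates 1, 2 and 3 of the DPPA3 mRNA group. The matching values were 0.249, 0.269 and 3.47 CPM for reagent alone and 1.29, 1.41 and 0.685 CPM for untreated control. Every transfected library lay above all 6 other libraries, while reagent alone and untreated control overlapped. In RNA from whole cultures, fewer cells that express a gene and less of its RNA per cell cannot be told apart, and the same holds for more. In reads, these levels stood on 60, 1161 and 207 counts with DPPA3 mRNA, 1, 3 and 44 with reagent alone and 8, 13 and 7 in untreated cells, so 2 reagent alone libraries lay at or under the floor of 3 counts. The fitted log2 fold change of DPPA3 mRNA over reagent alone was 4.74 (SE 1.04), and over untreated control it was 5.24 (SE 1.09). Neither was called across all genes by the quasi-likelihood test of edgeR (Benjamini-Hochberg adjusted p 0.62 and 0.38). Of the 3 reagent alone libraries, replicate 3 held 44 of the 48 ISG15 counts. Pooled over libraries, ISG15 was 22.9 times as abundant with DPPA3 mRNA as with reagent alone (95% counting interval 17.2 to 31.3). DPPA3 mRNA replicate 2 held 1161 of the 1428 pooled counts, and without it the ratio was 6.18 (counting interval 4.53 to 8.59). Against reagent alone replicates 1 and 2, with 4 counts between them, the ratio of all 3 transfected libraries was 150 (counting interval 58.4 to 550.4). These intervals are exact and cover counting error only, not the spread between libraries.

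**Figure D1:**
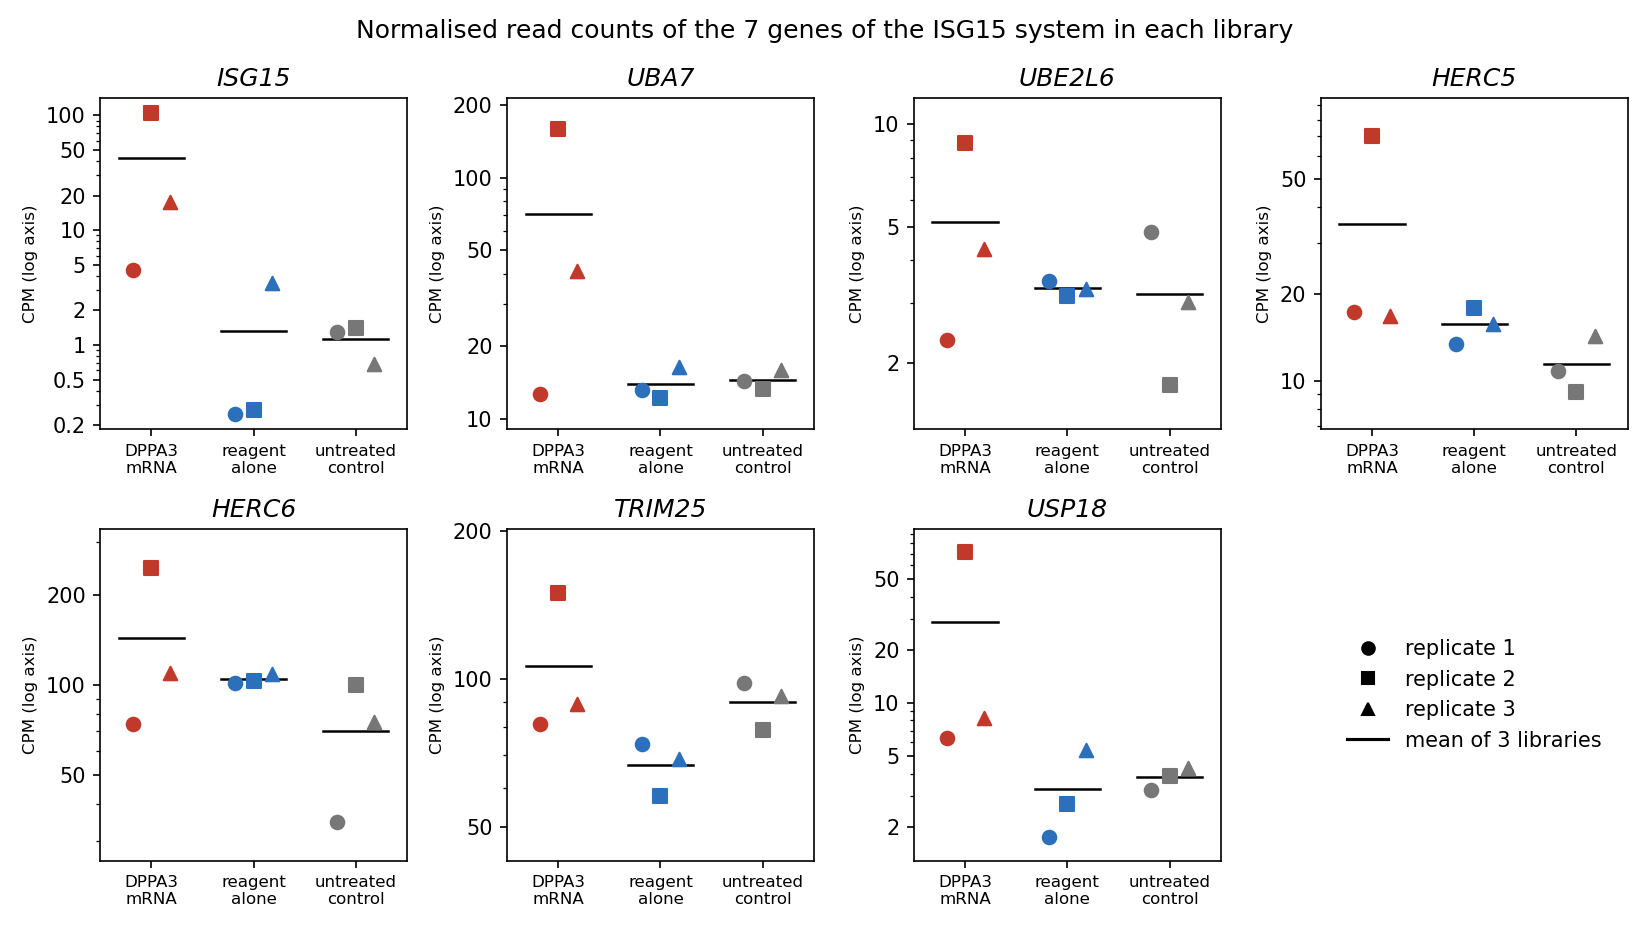
CPM of each of the 7 genes in each of the 9 libraries on a log axis, by group, with 1 symbol per replicate number and a line at the group mean. DPPA3 mRNA replicate 2 (red square) is the highest of the 9 libraries for all 7 genes, and for ISG15 and USP18 all 3 DPPA3 mRNA libraries lie above the 6 others.

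UBA7, the activating enzyme that starts the cascade, measured 12.7, 158 and 41.0 CPM in replicates 1, 2 and 3 of the DPPA3 mRNA group, against 13.2, 12.2 and 16.4 CPM with reagent alone and 14.3, 13.3 and 15.9 CPM in untreated cells, in the order of the replicates. Replicates 2 and 3 of the transfected group stood above all 6 other libraries, while replicate 1 lay among them. The 6 libraries without the mRNA kept within 12.2 to 16.4 CPM. The log2 fold change was 2.33 (SE 0.62) over reagent alone and 2.28 (SE 0.62) over untreated control, and it was called in neither comparison (edgeR adjusted p 0.9998 and 0.85).

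UBE2L6, the conjugating enzyme that receives ISG15 from UBA7, was the member with the fewest counts after ISG15 in the libraries without mRNA. It measured 2.34, 8.85 and 4.33 CPM in replicates 1, 2 and 3 of the DPPA3 mRNA group, against 3.49, 3.14 and 3.31 CPM with reagent alone and 4.83, 1.73 and 3.03 CPM in untreated cells. The transfected libraries ranged on both sides of the reagent alone libraries. Its log2 fold change of 0.64 (SE 0.51) over reagent alone and 0.71 (SE 0.51) over untreated control was called in neither comparison (edgeR adjusted p 0.9998 and 0.85). Counts of UBE2L6 lay between 14 and 98 per library, which limits the precision of its level.

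Of the ligases, HERC5 is the main ISG15 ligase of human cells and HERC6 takes that role in the mouse. Their genes are neighbours in the RefSeq annotation of the cattle assembly ARS-UCD2.0, and no other annotated gene overlaps either of them or any other of the 7. HERC5 measured 17.3, 70.4 and 16.7 CPM in replicates 1, 2 and 3 of the DPPA3 mRNA group, against 13.4, 17.9 and 15.8 CPM with reagent alone and 10.8, 9.20 and 14.3 CPM in untreated cells. All 3 transfected libraries lay above the untreated controls, but 2 of them lay within the range of reagent alone. Fitted log2 fold changes were 1.14 (SE 0.46) over reagent alone and 1.60 (SE 0.47) over untreated control.

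HERC6 measured 74.3, 246 and 109 CPM in replicates 1, 2 and 3 of the DPPA3 mRNA group, against 102, 103 and 109 CPM with reagent alone and 35.0, 99.9 and 75.1 CPM in untreated cells. The reagent alone libraries agreed closely and all lay above the untreated controls, while DPPA3 mRNA replicate 1 lay below every reagent alone library. The log2 fold change was 0.45 (SE 0.39) over reagent alone and 1.03 (SE 0.39) over untreated control. Without DPPA3 mRNA replicate 2, the HERC6 difference from reagent alone changed sign, to -0.19 (SE 0.32). Neither HERC gene was called in these comparisons (edgeR adjusted p 0.9998 for both over reagent alone and 0.85 for both over untreated control).

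TRIM25, a ubiquitin ligase of the RNA sensor RIG-I that can also act as an ISG15 ligase, had the narrowest spread of the 7 among the transfected libraries. It measured 80.9, 149 and 89.1 CPM in replicates 1, 2 and 3 of the DPPA3 mRNA group, against 73.7, 57.8 and 68.9 CPM with reagent alone and 98.3, 78.9 and 92.3 CPM in untreated cells. All 3 transfected libraries exceeded the 3 reagent alone libraries, but 2 of the 3 lay within the range of the untreated controls. The log2 fold change was 0.67 (SE 0.22) over reagent alone and 0.24 (SE 0.22) over untreated control, and was called in neither (edgeR adjusted p 0.9998 and 0.85). The value over untreated control, with DPPA3 mRNA replicate 2 left out, was -0.08 (SE 0.19). The reagent alone group was the lowest of the 3 on average, at 66.8 ± 8.19 CPM, against 89.8 ± 9.92 CPM in untreated cells (SD, n = 3).

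USP18, the protease that removes ISG15 from its targets and that also binds the interferon receptor chain IFNAR2 and dampens signalling, measured 6.33, 71.2 and 8.23 CPM in replicates 1, 2 and 3 of the DPPA3 mRNA group. It measured 1.74, 2.69 and 5.44 CPM with reagent alone and 3.22, 3.90 and 4.30 CPM in untreated cells. Like ISG15, it was higher in each transfected library than in all 6 others. Its log2 fold change was 3.02 (SE 0.78) over reagent alone and 2.89 (SE 0.77) over untreated control, and was called in neither (edgeR adjusted p 0.9998 and 0.85). Reads of ISG15 relative to USP18 were 0.714, 1.47 and 2.13 to 1 in replicates 1, 2 and 3 of the DPPA3 mRNA group, against 0.143, 0.10 and 0.638 with reagent alone and 0.40, 0.361 and 0.159 in untreated cells. This ratio of modifier to protease counts needs no scaling of the libraries, and its transfected values lay above all others. The mean of its log2, with 0.5 counts added to each gene, was 0.39 ± 0.80 with DPPA3 mRNA and -2.03 ± 1.27 with reagent alone (SD, n = 3), a difference of 2.42. The two-sided exact permutation test gave p = 0.10, the smallest that 3 against 3 libraries allow.

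**Figure D2:**
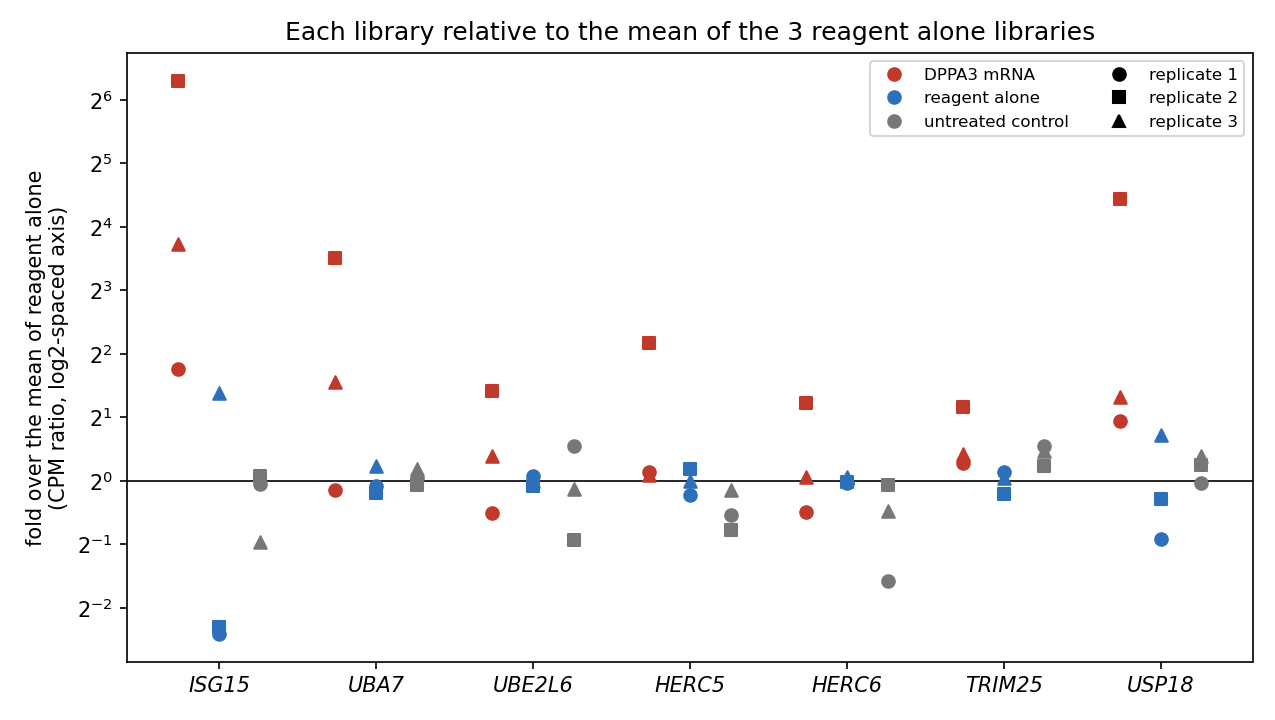
CPM of each library divided by the mean CPM of the 3 reagent alone libraries, on a log2-spaced axis, for the 7 genes. Colours give the group and symbols the replicate number. ISG15 spans from 3.41 to 79.0 times that mean across the DPPA3 mRNA libraries, and TRIM25 from 1.21 to 2.24 times.

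Setting DPPA3 mRNA against reagent alone, which asks what the mRNA added in cells that all met the reagent, gave 7 of 7 genes with a log2 fold change above 0 and a median of 1.14. Over all genes tested 50.4% lay above 0 and the median was 0.0027. By edgeR 0 of the 7 were called, where 0.00672% of all genes were, namely DPPA3 alone. An unadjusted p under 0.05 with a higher level was found for 5 of the 7 (ISG15, USP18, UBA7, TRIM25 and HERC5), and for 1.27% of all genes. In 3 of the 7 (ISG15, TRIM25 and USP18) the transfected and reagent alone libraries did not overlap, as for 4.91% of all genes. By DESeq2 0 of the 7 were called (0.0605% of all genes), and ISG15 had an adjusted p of 0.19. DESeq2 gave no adjusted p for USP18. By limma voom 0 of the 7 were called (0.00672% of all genes), and by edgeR with the replicate number as a block 0 of the 7 (0.0134%). A log2 fold change of at least 1 was reached by 4 of the 7, ISG15, USP18, UBA7 and HERC5, and by 1.76% of all genes, with no lower member at an unadjusted p under 0.05 (0.397% of all genes) or below every reagent alone library (3.99%). With no filter on low counts, edgeR called 4 of the 7, ISG15 (adjusted p 2.1e-15), UBA7 (2.8e-09), USP18 (4.6e-09) and HERC5 (0.0497), where 0.297% of all genes were called. The log2 fold change of ISG15 was 4.74 there too, with an SE of 0.46 in place of 1.04. The counts of the 7 genes are the same in both fits, and ISG15 ran from 4.52 to 105 CPM within the transfected group. The small p-values without a filter thus do not come from closer agreement between libraries, and are not taken as evidence here.

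**Figure D3:**
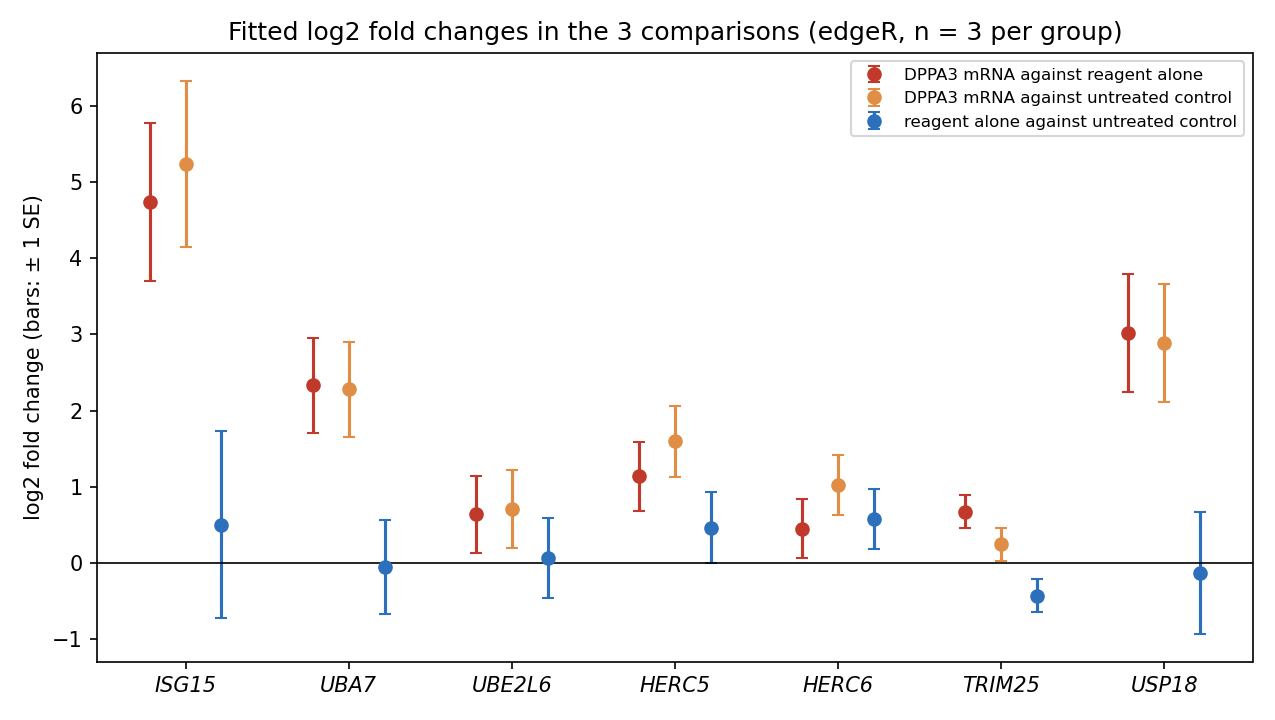
Fitted log2 fold changes of the 7 genes in the 3 comparisons, with bars of 1 SE (edgeR, n = 3 libraries per group). The DPPA3 mRNA comparisons are above 0 for all 7 genes, from 0.45 to 4.74 over reagent alone and from 0.24 to 5.24 over untreated control, and the reagent alone comparison runs from -0.43 to 0.57.

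Against untreated control, a comparison that takes reagent and mRNA together and shares its transfected libraries with the previous one, 7 of 7 genes lay above 0 with a median log2 fold change of 1.60, against 50.2% above 0 and a median of 0.0017 over all genes. Without DPPA3 mRNA replicate 2 the median was 0.57 with 6 of 7 above 0, and by limma voom it was 0.78. By edgeR 0 of the 7 were called, where 0.0134% of all genes were. The 5 genes with an unadjusted p under 0.05 and a higher level were ISG15, USP18, UBA7, HERC5 and HERC6, and 2.09% of all genes met that rule. ISG15, HERC5 and USP18 did not overlap with the untreated controls (3 of 7, against 4.24% of all genes). DESeq2 (0.0672% of all genes called), limma voom (0.0269%) and the replicate block (0.0471%) called 0 of the 7. The lowest adjusted p was 0.086, for ISG15 by DESeq2, which gave USP18 no adjusted p here either. The log2 fold change was at least 1 for 5 of the 7, against 2.21% of all genes. No member was lower at an unadjusted p under 0.05 (1.82% of all genes) or below every untreated control library (3.86%). Without a filter 5 of the 7 were called by edgeR (HERC6 in addition to the 4 named above), and 0.31% of all genes. The limit given above for the fit without a filter holds here too. The transfected libraries lay above all 6 other libraries for 2 of the 7, ISG15 and USP18, and for 0.74% of all genes.

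What the reagent did without mRNA was read from reagent alone over untreated control. Of the 7 genes 4 lay above 0, and so did 49.2% of all genes. The median log2 fold change was 0.067 for the 7 and -0.0099 over all genes. By edgeR 0 of the 7 were called (0% of all genes), and 0 had an unadjusted p under 0.05, where 4.23% of all genes did with a higher and 5.96% with a lower level. HERC6 was higher in every reagent alone library than in every untreated one, at 105 ± 3.96 against 70.0 ± 32.8 CPM (SD, n = 3), a log2 difference of 0.57 with SE 0.39 (edgeR adjusted p 0.52), and 6.92% of all genes did not overlap in that direction. The closest libraries stood at 102 and 99.9 CPM. Without untreated control replicate 1, at 35.0 CPM, the HERC6 difference was 0.27. TRIM25 was lower in every reagent alone library (log2 fold change -0.43, SE 0.22; edgeR adjusted p 0.47), as were 7.21% of all genes. ISG15 averaged 1.33 ± 1.85 CPM under reagent alone and 1.13 ± 0.39 CPM in the untreated control group (SD, n = 3). Without reagent alone replicate 3 its log2 fold change of 0.50 (SE 1.23) changed sign, to -2.01 (SE 1.81). DESeq2 and limma voom called 0 of the 7 genes (0.0134% of all genes by each), and 0 reached a log2 fold change of 1 (2.44% of all genes). USP18 again had no adjusted p by DESeq2.

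The 3 transfected libraries differed widely from each other in these genes. The ratio of the highest to the lowest transfected library was 23.2 for ISG15, 12.5 for UBA7 and 11.2 for USP18. It was 4.21 for HERC5, 3.79 for UBE2L6, 3.31 for HERC6 and 1.85 for TRIM25. DPPA3 mRNA replicate 2 was the highest of the 9 libraries for 7 of 7 genes, as for 11.2% of all genes tested. Its level was 4.48 times the mean of reagent alone in the median gene, from 2.24 times for TRIM25 to 79.0 times for ISG15. Replicate 3 stood at 1.33 times in the median gene and above every reagent alone library in 6 of 7 genes, all but HERC5. For HERC6 the margin was only 109.3 against 109.1 CPM. Replicate 1 stood at 1.11 times in the median gene and above every reagent alone library in 3, ISG15, TRIM25 and USP18. For replicates 1 and 3 the share of all genes that did the same was not counted, so nothing is concluded from these counts. The transfected transcript took 1.93% of counts in replicate 2, 1.84% in replicate 3 and 0.953% in replicate 1. Replicates 2 and 3 were thus close in DPPA3, while ISG15 was at 105 and 17.6 CPM. Whether the DPPA3 level, or another difference between the transfected cultures, bears on these levels was not tested.

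Spread within groups was set beside that of all genes tested. The coefficient of variation of the 7 genes ran from 35.1% to 129% in the DPPA3 mRNA group (median 88.5%), where the median over all genes was 16.6%, and all 7 lay above that median. With reagent alone the 7 genes had a median of 14.1% against 17.0% over all genes. In untreated cells they had 22.7% against 27.9%. ISG15 and USP18 were the exceptions with reagent alone, at 139% and 58.3%, and both were highest there in replicate 3.

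Leaving out single libraries showed which of them the differences from reagent alone rested on. Without DPPA3 mRNA replicate 2 the median log2 fold change of the 7 genes was 0.35, ISG15 stood at 2.87 (SE 0.83), USP18 at 1.08 (SE 0.46) and UBA7 at 0.94 (SE 0.38). HERC5 stood at 0.11, UBE2L6 at 0.01 and TRIM25 at 0.35. The 3 genes ISG15, UBA7 and USP18 then still had an unadjusted edgeR p under 0.05 with a higher level, as did 1.02% of all genes, and 0 of the 7 were called (0.013% of all genes). Without DPPA3 mRNA replicate 1, ISG15 (log2 fold change 5.27, SE 0.82; edgeR adjusted p 0.025) and UBA7 (2.83, SE 0.41; adjusted p 0.017) were called, where 0.13% of all genes were, and USP18 was not (3.49, SE 0.67; adjusted p 0.083). Both were also called over untreated control in that setting (edgeR adjusted p 0.014 for each), among 0.17% of all genes. Leaving out any other library called 0 of the 7. Without reagent alone replicate 3 the ISG15 value was 7.26, which then rested on 4 counts in the reagent alone group. With DPPA3 mRNA replicate 2 and reagent alone replicate 3 both left out, a setting chosen after the values were seen, 0 of the 7 were called (0.0132% of all genes) and the median was 0.38.

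**Figure D4:**
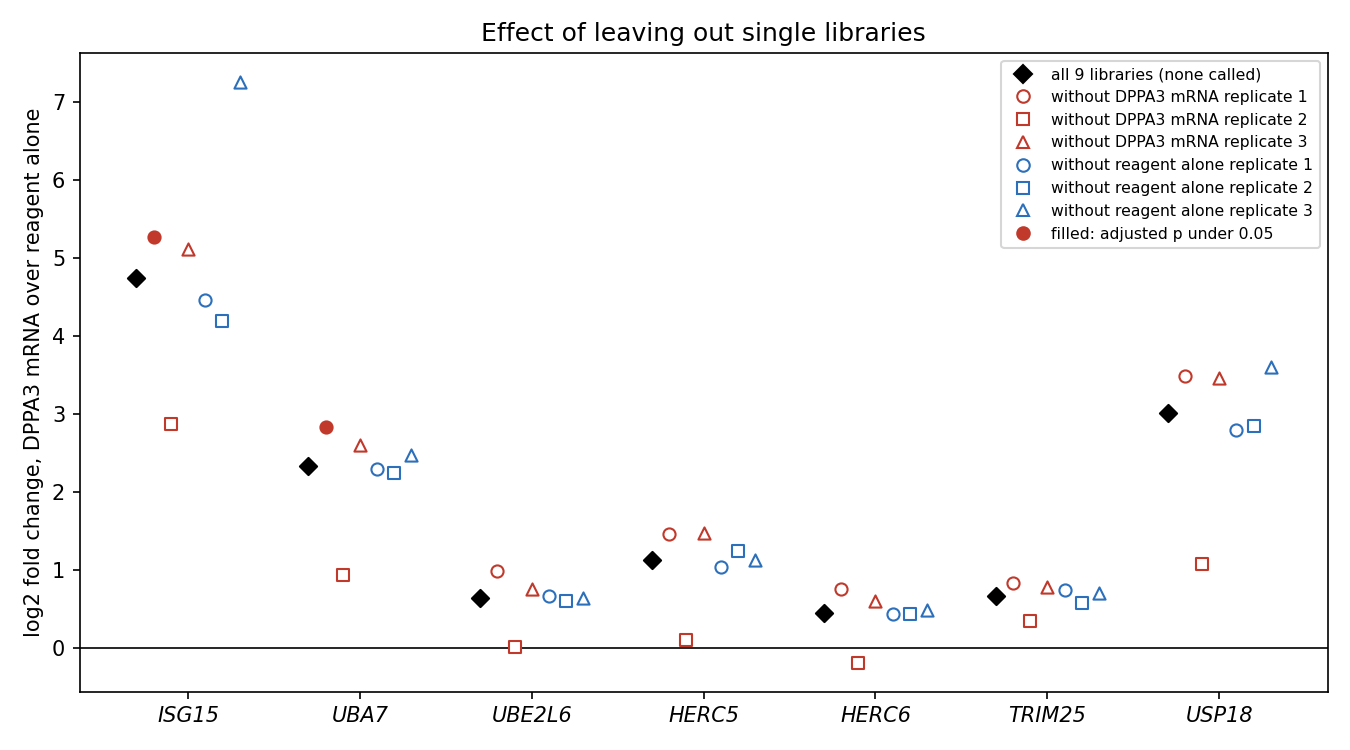
Log2 fold change of DPPA3 mRNA over reagent alone for the 7 genes with all 9 libraries (black diamonds) and with each of the 6 compared libraries left out in turn (coloured symbols, filled where the adjusted p was under 0.05). Leaving out DPPA3 mRNA replicate 2 gives the lowest value for every gene, and the 2 filled symbols are ISG15 and UBA7 without DPPA3 mRNA replicate 1.

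Genes around the 7 were examined as lists. Of the 7 other enzymes reported to act on ISG15, the ligase ARIH1 and the proteases USP2, USP5, USP13, USP14, USP16 and USP21, 0 were called by edgeR in any comparison and 0 had an unadjusted p under 0.05 over reagent alone. Their log2 fold changes over reagent alone ran from -0.43 to 0.18, with a median of -0.14. The 4 with the smallest p were USP5 at 88.1 ± 2.95 against 77.6 ± 2.86 CPM, USP16 at 43.8 ± 6.57 against 52.7 ± 3.16 CPM, USP2 at 4.89 ± 0.81 against 6.34 ± 3.87 CPM and USP14 at 37.7 ± 13.3 against 44.3 ± 6.95 CPM (DPPA3 mRNA against reagent alone; SD, n = 3).

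Nearest relatives of the members that serve ubiquitin or other modifiers gave small values. UBA1, the main activating enzyme of ubiquitin, measured 204 ± 14.6 CPM under DPPA3 mRNA and 189 ± 18.5 CPM under reagent alone, and UBA6, a second ubiquitin activating enzyme, 36.5 ± 10.9 and 38.9 ± 5.62 CPM (SD, n = 3). UBE2L3, the closest relative of UBE2L6, measured 40.6 ± 7.69 CPM under DPPA3 mRNA and 42.7 ± 1.26 CPM under reagent alone. HERC3 measured 12.6 ± 3.37 and 13.6 ± 0.94 CPM, and HERC4 49.3 ± 10.7 and 55.0 ± 5.86 CPM, in the same order. UBA3, the catalytic subunit that activates NEDD8, had the smallest p of the list. It was lower in every transfected library than in every reagent alone library, as were 3.99% of all genes. Its levels were 25.8 ± 6.26 against 36.2 ± 2.44 CPM (a log2 difference of -0.49, SE 0.36, at an edgeR adjusted p of 0.9998). UBA2, a subunit of the SUMO activating enzyme, measured 91.4 ± 14.9 CPM under DPPA3 mRNA and 101 ± 5.999 CPM under reagent alone. Over the 9 relatives tested of 10 listed, 0 were called and the median log2 fold change was -0.09.

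Of 14 tested genes for ubiquitin and other ubiquitin-like modifiers, 0 were called over reagent alone, 0 had an unadjusted edgeR p under 0.05, and log2 fold changes ran from -0.44 to 0.10, against 4.74 for ISG15. GABARAP and MAP1LC3B, which are joined to lipids in autophagy, measured 34.1 ± 7.24 against 42.4 ± 7.73 CPM and 32.4 ± 2.97 against 38.1 ± 2.04 CPM (DPPA3 mRNA against reagent alone; SD, n = 3). SUMO3 measured 45.7 ± 8.20 against 55.3 ± 4.89 CPM and UFM1 20.2 ± 9.26 against 27.1 ± 9.75 CPM in the same comparison. UBD, which encodes the interferon-inducible modifier FAT10, did not pass the filter on low counts, at 0.151 ± 0.261 CPM under DPPA3 mRNA and 0.0898 ± 0.156 CPM under reagent alone, both under the floor.

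Proteins reported to carry ISG15 were represented by 20 tested genes of 23 listed, of which 0 were called over reagent alone. An unadjusted edgeR p under 0.05 with a higher level was found for 6 of the 20, and for 1.27% of all genes. The median log2 fold change was 0.087. MX1, an antiviral GTPase, measured 27.9, 669 and 116 CPM in replicates 1, 2 and 3 of the DPPA3 mRNA group, against 8.72, 10.1 and 27.1 CPM with reagent alone. PML, the scaffold of nuclear bodies, measured 60.8, 190 and 86.5 CPM, against 41.8, 49.6 and 60.7 CPM. In both genes, and in IRF3, the transfected libraries all exceeded the reagent alone libraries (3 of 20, against 4.91% of all genes). In untreated cells MX1 measured 5.80, 10.2 and 8.80 CPM, below every transfected library. PML measured 95.2, 63.5 and 87.1 CPM there, with transfected replicate 1 below all of these values and replicate 3 within their range. The RNA sensors DDX58 (RIG-I) and IFIH1 measured 142 ± 147 against 33.5 ± 11.3 CPM and 38.8 ± 44.3 against 8.25 ± 3.48 CPM (SD, n = 3), with overlap between the groups.

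Among 13 tested genes of type I interferon signalling, 0 were called over reagent alone. An unadjusted edgeR p under 0.05 with a higher level was found for 4 of them, and for 1.27% of all genes. These 4 were IRF9, IRF1, IRF7 and STAT2. IRF9, a DNA-binding partner of STAT2, measured 37.6, 105 and 61.5 CPM in replicates 1, 2 and 3 of the DPPA3 mRNA group, against 26.9, 24.8 and 38.0 CPM with reagent alone. IRF1 measured 14.9 ± 3.02 against 8.51 ± 1.58 CPM, IRF7 36.2 ± 25.4 against 16.4 ± 4.89 CPM and STAT2 42.5 ± 4.83 against 32.6 ± 2.19 CPM (SD, n = 3). IRF1, STAT2 and IRF3 were higher in every transfected library than in every reagent alone library (3 of 13, against 4.91% of all genes). IRF3 measured 86.0, 102 and 90.4 CPM with DPPA3 mRNA, against 85.4, 66.4 and 71.2 CPM with reagent alone. IFNAR2, the receptor chain that USP18 binds, measured 26.1 ± 1.81 CPM under DPPA3 mRNA and 34.2 ± 12.5 CPM under reagent alone (a log2 difference of -0.38, SE 0.24, at an edgeR adjusted p of 0.9998). Of 3 integrin chains listed for the receptor of secreted ISG15, which is made of ITGAL and ITGB2, ITGAL was at 0 in all 9 libraries, ITGAX did not pass the filter, and ITGB2, also on the list of immune markers, ranged from 0.632 to 3.69 CPM with DPPA3 mRNA and from 0.0788 to 5.73 CPM with reagent alone.

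Over untreated control, a comparison that shares the transfected libraries, 0 of the 20 reported targets and 0 of the 13 signalling genes were called. An unadjusted edgeR p under 0.05 with a higher level was again found for 6 of the 20 and 4 of the 13, and for 2.09% of all genes. The medians of the 2 lists there were 0.32 and 0.12 on the log2 scale. The 7 other enzymes had a median of 0.062, the 9 relatives 0.24 and the 14 other modifiers 0.16, with 0 called in each. At an unadjusted edgeR p under 0.05, 1 of the 14 modifiers was higher and 1 of the 9 relatives lower (1.82% of all genes were lower). For reagent alone over untreated control, 1 of the 20 targets and 0 of the 13 signalling genes had an unadjusted edgeR p under 0.05 with a higher level. The share over all genes was 4.23%. The medians of these lists were 0.11 and -0.087, and 0 were called by edgeR. Of the 14 modifiers, 2 were higher and 1 lower at that unadjusted threshold, and 1 of the 7 other enzymes was lower (5.96% of all genes were lower).

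**Figure D5:**
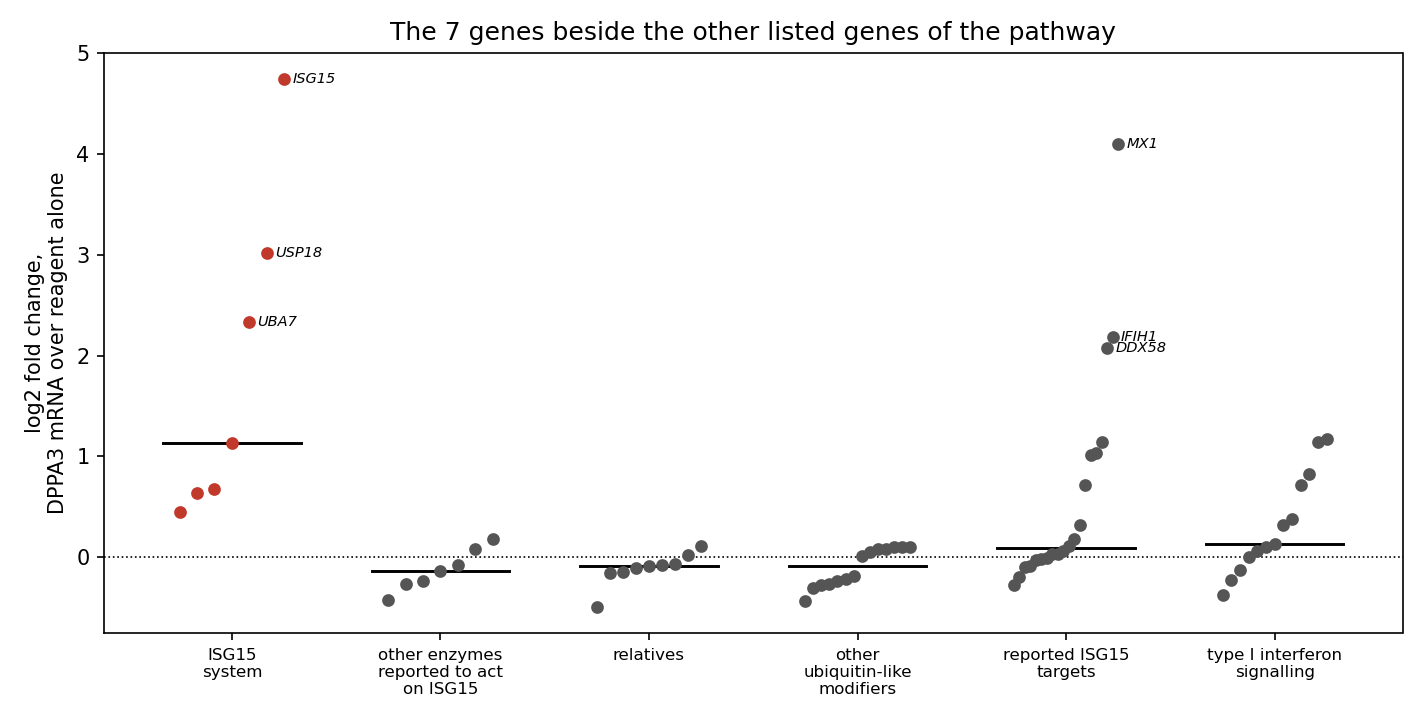
Log2 fold change of DPPA3 mRNA over reagent alone for the 7 genes (red) and for the tested genes of 5 other lists (grey), 1 point per gene sorted within its list, with a line at the median. The medians are 1.14 for the 7 genes and between -0.14 and 0.13 for the other lists, and ISG15, USP18, UBA7, MX1, IFIH1 and DDX58 are named.

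The genes whose levels followed ISG15 most closely were sought over the 9 libraries by Pearson's correlation of log2(CPM + 0.25), as a description. The libraries share 3 groups, and DPPA3 mRNA replicate 2 is far from the rest. The 5 genes outside the 7 with the highest values were IFI6 (0.98), LOC100298356 (0.97), IRF9 (0.96), MX1 (0.96) and OAS1Y (0.95). IFI6, an interferon-induced membrane protein gene, measured 21.3, 461 and 88.8 CPM in replicates 1, 2 and 3 of the DPPA3 mRNA group, against 2.74, 5.84 and 15.3 CPM with reagent alone. LOC100298356, which the files name only by this symbol, measured 6.26, 80.2 and 14.5 CPM in the transfected replicates, against 0.747 to 2.84 CPM in the reagent alone replicates. In both genes the transfected and reagent alone libraries did not overlap, as for 4.91% of all genes in that direction. Both were picked for following ISG15, which did not overlap either, so this is no separate support. Reads of OAS1Y may be shared with near-identical copies of the OAS1 family. Of the members, USP18 ranked 8 of all genes by this measure (0.94) and UBA7 ranked 22 (0.90). HERC5 stood at 0.77, TRIM25 at 0.75, UBE2L6 at 0.63 and HERC6 at 0.59. Without DPPA3 mRNA replicate 2 the values were 0.92 for USP18 and 0.76 for UBA7, and between 0.11 and 0.37 for the remaining 4. Over the 6 libraries without the mRNA, ISG15 stood at 0.84 with USP18, 0.69 with UBA7, 0.24 with TRIM25, -0.082 with UBE2L6, -0.11 with HERC6 and -0.27 with HERC5. ISG15 had only 1 to 44 counts in those libraries. Reagent alone replicate 3 was the highest of them for ISG15, USP18 and UBA7, so these values lean on that library.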

How the data were processed

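The authors deposited raw read counts per gene symbol for 9 libraries. Trimmomatic, HISAT2, HTSeq and edgeR are named in the submitters' processing notes. For their versions, the genome build, the annotation and strand use, the entry is: not given in the sources used here. No coordinates are therefore printed. Transcript lengths were not at hand, so no level was corrected for length. The ISG15 to USP18 ratio and the marker sums therefore do not give relative abundance between genes. All 7 members matched a RefSeq table of ARS-UCD2.0 by symbol, and that table was used only for gene neighbours.

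The deposited counts were filtered with filterByExpr (14874 of 30641 genes kept) and scaled with TMM factors. One edgeR 4.0.16 fit (glmQLFit, glmQLFTest, R 4.3.3) held all 9 libraries, with Benjamini-Hochberg adjustment over all tested genes and a threshold of 0.05. Each SE was taken from the log2 fold change and its F statistic. No 2 libraries of a group agreed within sampling noise (chi-square per degree of freedom at least 13.4). Untreated control replicate 1 differed most from its group, at 63.0 and 49.5 from replicates 2 and 3, which stood at 13.8 from each other. Its TMM factor was 0.856. Alternatives were DESeq2 1.42.0, limma 3.58.1 voom with quality weights, other scaling, no filter, fewer libraries and a replicate block. The edgeR, DESeq2 and voom fits of all libraries were tested on simulated data.

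The text names the 7 members, up to 4 genes of each list with the smallest p over reagent alone, near relatives of the members, and the 5 genes most correlated with ISG15. IFNAR2, IRF3, UBD and the integrin genes were added once their values were known. The members and lists were chosen with earlier results of these data known.

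Deviations from group means, compared between libraries of equal number, correlated at 0.35, 0.33 and 0.13 for DPPA3 mRNA and untreated control. All exceeded 0.1, so the numbers may pair those libraries, on the data alone and not on the labels. The main fit did not model this pairing, and its fold changes, SEs and p-values are unpaired. A replicate block, over all 9 libraries, was run only as an alternative.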

Additional observations from a re-analysis of the deposited data

How the results depend on the processing

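Over 17 alternatives, the log2 fold changes of the 7 genes kept their sign and their side of the threshold in 110 of 118 values for DPPA3 mRNA over reagent alone, 109 of 118 over untreated control and 111 of 118 for reagent alone over untreated control. USP18 by DESeq2, which gave it no adjusted p, is not among them. With no filter, 4 members were called over reagent alone and 5 over untreated control, and leaving out single libraries gave 0 to 2 for each. Their median over untreated control was 0.78 by limma voom. It was 0.57 with the pair DPPA3 mRNA replicate 2 and reagent alone replicate 3 removed, a setting chosen after the values were seen, and 0.57 to 1.93 without any single library. The cause of these shifts was not tested. Without single libraries, signs turned for HERC6 over reagent alone (-0.19 to 0.76), TRIM25 over untreated control (-0.077 to 0.41) and, in reagent alone over untreated control, ISG15 (-2.01 to 1.05), USP18 (-0.72 to 0.092), UBA7 (-0.20 to 0.040) and UBE2L6 (-0.23 to 0.47). With that pair removed, HERC6 was -0.15, TRIM25 -0.078 and ISG15 -2.03 in those comparisons. The adjusted p of ISG15 over reagent alone ranged from 2.1e-15 to 0.99998 over all alternatives. Genes called in all, for DPPA3 mRNA over reagent alone, DPPA3 mRNA over untreated control and reagent alone over untreated control, were 66, 69 and 18 without a filter. They were 9, 10 and 2 by DESeq2, 1, 4 and 2 by limma voom, and 2, 7 and 0 with the replicate block, which changed no call of a member. Without single libraries they ranged over 1 to 20, 1 to 26 and 0 to 1. Between equal numbers, correlations were 0.15, 0.12 and 0.0898 for DPPA3 mRNA and reagent alone. They were 0.16, 0.15 and 0.0972 for reagent alone and untreated control. Not all exceeded 0.1, so pairing was not taken as given there. Between unequal numbers they were lower, from -0.10 to 0.010 and from -0.15 to 0.043. The numbers may therefore pair these libraries too, which the unpaired p-values of the main fit leave out. The difference in log2 ISG15 to USP18 ratio stayed between 1.87 and 3.11. Reagent alone replicate 1, the shallowest library, held 1 read of ISG15, so lower levels were not detectable there.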
